A study of Mus musculus with 8 samples.

Results

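Gene-flanking RelA peaks are the peaks whose centre lies on chromosomes 1 to 19, outside every protein-coding gene, more than 1 kb from the end of any gene, and over 1 and up to 10 kb from the nearest end of a protein-coding gene. They were chosen by position alone. There were 733 of them among 9829 peaks in all (7.46%) and among 9688 peaks on chromosomes 1 to 19. The peaks came from chromatin immunoprecipitation and sequencing (ChIP-seq) of RelA in primary fibroblasts (MEFs) grown from wild-type C57BL/6 embryos and starved of serum overnight. There were 2 ChIP libraries from cells at 0 h, 2 from cells given the cytokine TNF at 10 ng/ml for 0.5 h and 2 after 3 h, beside 2 input DNA libraries, 8 in all. The deposited values were 1 list of peak positions for the whole series, with no height and no value per library, so times could not be compared, and neither depth nor replicate spread is known. Everything below describes that single list, without a test. The sources used here do not say how many embryos or cultures the cells came from, and markers of the cell type could not be checked, since a peak list holds no expression values.

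RelA, also called p65, is a subunit of NF-kB, a transcription factor held in the cytoplasm by I-kappa-B proteins until a signal such as TNF releases it. In fibroblasts NF-kB is known for switching on genes for chemokines, cytokines, adhesion molecules, survival proteins and its own inhibitors. Stretches just outside a gene can hold proximal enhancers, which are bound by such factors and act on a start site some distance away. The cells were cross-linked with disuccinimidyl glutarate and formaldehyde, which can also retain proteins that touch DNA through a partner, so a peak need not mark DNA that RelA itself touches.

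No genome sequence of the build was used here, so the letters under most of these peaks cannot be shown. The start windows of RefSeq (GRCm38.p6, 250 bases before to 50 after a listed start) lay under a gene-flanking peak in 1 case only, and that window is printed whole because it is the sequence of a member. It belongs to a start of the long noncoding gene Gm31936 at chr10:81570634-81570933 (plus strand), inside the 733 bp peak at 81570382 to 81571114, whose centre was 3.99 kb from the coding gene Tle2, a transcriptional corepressor gene. It holds no match to the kappaB consensus, the motif of NF-kB, and none to TGANTCA, the motif of AP-1, on either strand. Of 31396 start windows of coding and long noncoding genes of the same length, 8.55% held a kappaB match and 7.84% a TGANTCA match.
Gm31936: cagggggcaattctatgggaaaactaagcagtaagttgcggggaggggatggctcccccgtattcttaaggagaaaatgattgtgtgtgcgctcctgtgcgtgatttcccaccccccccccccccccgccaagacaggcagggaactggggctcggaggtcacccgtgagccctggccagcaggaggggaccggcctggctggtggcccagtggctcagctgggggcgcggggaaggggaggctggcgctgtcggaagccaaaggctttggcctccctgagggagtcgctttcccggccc

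For 4 genes named below, a gene-flanking peak accompanied another RelA peak that lay over a start window with a kappaB match. These windows are shown because they give the sequence at the start site to set beside the flanking peak, whose own letters are not shown. Windows without a match were not printed, so the 4 do not show how often a window under a peak holds one. Of 1090 start windows of protein-coding genes under any RelA peak, 322 (29.5%) held a kappaB match, against 9.42% of all 20085 such windows. The kappaB match is in capitals, on the strand of the gene. At Tnip1 the 250 bases before the start are given (chr11:54962941-54963190, minus strand), where 3 matches overlap, and likewise at Ier3 (chr17:35821463-35821712, plus strand). At Bcl3 (chr7:19822734-19822763, minus strand) and Il4ra (chr7:125552281-125552310, plus strand) the match lay just after the listed start, and 30 bases around it are given. Of the 829 genes with a gene-flanking peak, 630 (76.0%) had a start window in RefSeq, less than the 80% required, so a comparison of motif shares between these genes and others is void.
Tnip1: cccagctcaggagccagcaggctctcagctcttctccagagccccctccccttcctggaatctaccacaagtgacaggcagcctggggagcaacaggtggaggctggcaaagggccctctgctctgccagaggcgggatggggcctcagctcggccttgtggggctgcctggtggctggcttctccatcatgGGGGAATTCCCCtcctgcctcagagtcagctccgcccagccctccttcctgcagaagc
Ier3: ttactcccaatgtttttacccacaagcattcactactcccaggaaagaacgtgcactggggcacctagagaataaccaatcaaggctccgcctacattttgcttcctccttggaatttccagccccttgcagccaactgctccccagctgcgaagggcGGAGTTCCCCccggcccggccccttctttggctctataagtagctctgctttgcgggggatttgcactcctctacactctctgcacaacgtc
Bcl3: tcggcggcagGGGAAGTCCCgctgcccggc
Il4ra: ccttctcgcaGGAAAGCCCCgcgcggcgcg

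The gene-flanking peaks were 325 to 1579 bp wide, with a median of 667 bp and quartiles at 567 and 787 bp. The 95% interval of this median was 655 to 680 bp. Peaks within 1 kb of a protein-coding gene end had a median of 766 bp, peaks inside protein-coding genes 673 bp, and peaks 10 to 100 kb from the nearest gene end 695 bp. The value inside genes lies within the interval of the gene-flanking median, and with a lower limit of 2 kb the latter was 675 bp. The quartiles at protein-coding gene ends were 631 and 922 bp. Of the gene-flanking peaks, 31 (4.23%) were 1100 bp or wider, against 5.08% of all peaks on chromosomes 1 to 19. The share was 3.88% inside protein-coding genes, 4.70% at 10 to 100 kb, 3.93% beyond 100 kb and 10.4% at protein-coding gene ends. Among the gene-flanking peaks themselves, the median width was 649 bp at 1 to 4 kb, 669 bp at 4 to 7 kb and 690 bp at 7 to 10 kb, with quartiles that overlapped widely (558 to 762, 563 to 809 and 596 to 786 bp).

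**Figure D1:**
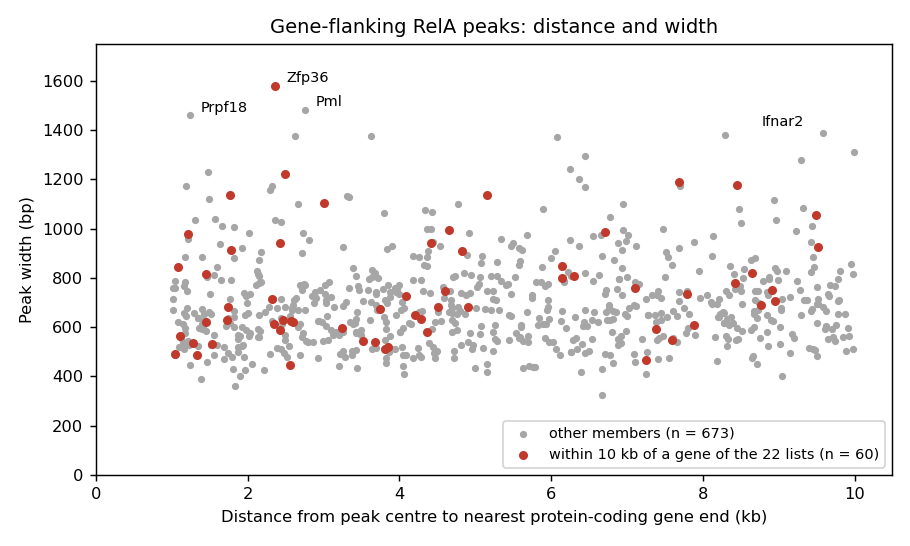
Each point is 1 of the 733 gene-flanking peaks, by the distance from its centre to the nearest protein-coding gene end (kb) and its width (bp). The 60 peaks within 10 kb of a gene of the lists described in the text are red and spread over the whole range of distances, and the widest, 1579 bp, is the Zfp36 peak.

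The 10 widest gene-flanking peaks lay near genes of varied function. The widest, 1579 bp, was on the start-site side of Zfp36, which encodes tristetraprolin, a protein that speeds the decay of cytokine messages (chromosome 7, 28380804 to 28382382). Next came a 1483 bp peak 2.76 kb beyond the end of Pml, the gene of the nuclear body scaffold protein (chromosome 9, 58213682 to 58215164), and a 1461 bp peak 1.24 kb from the splicing factor gene Prpf18. A 1388 bp peak lay 9.58 kb on the start-site side of Ifnar2, which encodes a subunit of the type I interferon receptor, and it was the only one of these 4 with another peak within 10 kb. The others were nearest to Fcrl5 (1381 bp), the kinase chaperone gene Cdc37 (1375 bp), Gm3650 (1375 bp), Reep3 (1371 bp), the matrix gene Fbln2 (1311 bp) and the adenosine deaminase gene Ada (1296 bp).

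The density of these peaks varied little with distance from the gene. Autosomal sequence that meets the rule came to 190 Mb, which gave 3.86 gene-flanking peaks per Mb (95% Poisson interval 3.58 to 4.15, which covers counting error only). In steps of 1 kb the density ran from 3.28 per Mb at 7 to 8 kb (59 peaks) to 4.56 per Mb at 8 to 9 kb (77 peaks), and the first step, 1 to 2 kb, held 108 peaks or 3.84 per Mb. The intervals of all 9 steps overlapped, and no gradient towards the gene was visible at this number of peaks. The fall in the count with distance went with a fall in the sequence available, from 28.1 Mb in the first step to 15.97 Mb in the last. Sequence inside protein-coding genes and more than 1 kb from any end held 4.14 peaks per Mb (4.01 to 4.27), and the kilobase on each side of protein-coding gene ends 16.4 per Mb (15.5 to 17.3). Sequence to which short reads cannot be assigned was not taken out of these lengths.

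**Figure D2:**
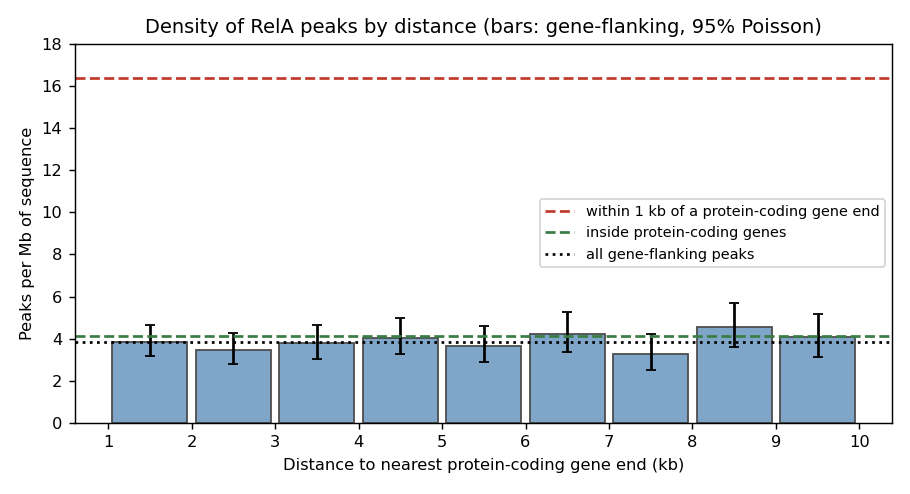
Bars give gene-flanking peaks per Mb of sequence that meets the rule in 1 kb steps of distance from the nearest protein-coding gene end, with 95% Poisson intervals, and lines give the density of 3 classes as a whole. The bars lie between 3.28 and 4.56 per Mb, close to the 4.14 per Mb inside genes and well under the 16.4 per Mb at gene ends.

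Just inside the limits of the rule, the 5 peaks nearest to 1 kb were centred 1017 to 1040 bp from Gfus, Atn1, Itih1, Orai2 and Il27, and the 5 nearest to 10 kb were centred 9923 to 9996 bp from Marchf10, Igsf10, Tra2a, Nicn1 and Fbln2. Just outside, peaks lay 971 to 991 bp from Coq7, the metallothionein gene Mt2, Chchd1, Trerf1 and Olfr433, and 10020 to 10072 bp from St7, Ubl4b, Csf2, Vwa3b and Bnc2. The widths of the 5 peaks on either side of a limit overlapped in both cases. Peaks thus continue on both sides of each limit.

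The gene-flanking class had the highest share of peaks with another peak nearby. Another peak centre lay within 10 kb of 171 of them (23.3%, Wilson 95% interval 20.4 to 26.5%). The share was 11.8% (10.1 to 13.8%) for peaks at protein-coding gene ends, 15.8% (14.6 to 17.0%) inside protein-coding genes, 18.1% (16.5 to 19.9%) at 10 to 100 kb and 11.4% (9.85 to 13.1%) beyond 100 kb, and the interval of the gene-flanking class overlapped only that of peaks at noncoding gene ends, 18.5% (15.2 to 22.3%). Peaks near each other are not independent, and the difference was not tested. For 66 of the 171 (38.6%) the nearest other peak was also gene-flanking, for 45 (26.3%) it was at a protein-coding gene end, and for 26 (15.2%) inside a gene. Most of the 171 had a single neighbour. Only 15 had 2 or more, and the most, 4, were found at both gene-flanking peaks near Icam1.

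**Figure D3:**
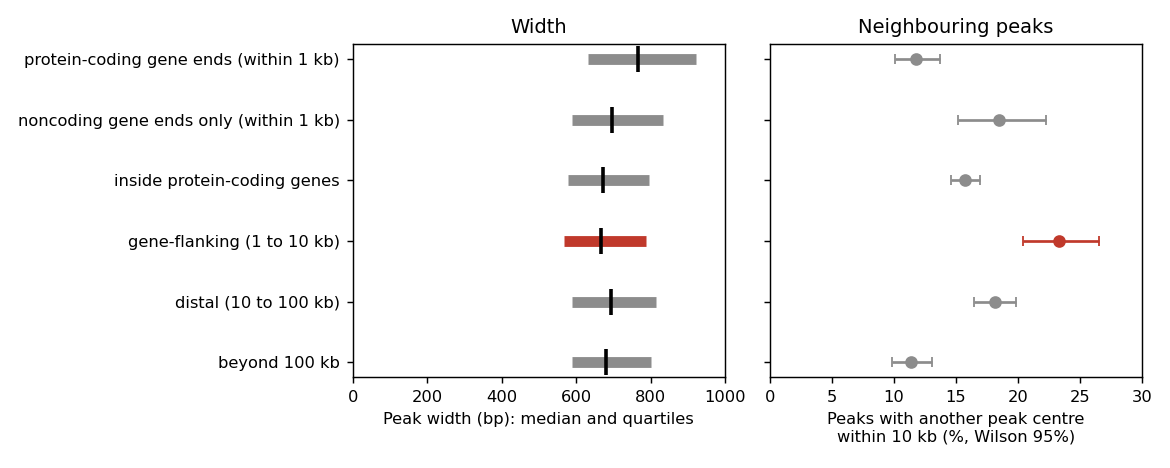
Left, peak width in bp for 6 location classes, with the median as a tick and the quartiles as a bar. Right, the percentage of peaks in each class with another peak centre within 10 kb, with Wilson 95% intervals. Gene-flanking peaks (red) have a median of 667 bp and the highest share with a neighbour, 23.3%.

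The gaps between protein-coding genes that held these peaks had a median length of 34.96 kb (quartiles 19.3 and 79.9 kb). In 190 cases (25.9%) the gap was no longer than 20 kb, and in 155 (21.1%) it was over 100 kb. For 594 peaks a single protein-coding gene had an end within 10 kb, while 126 had 2 such genes, 12 had 3 and 1 had 4, so a gene named here need not be the only candidate. Of all 733, 97 (13.2%) were centred inside a noncoding gene, 95 of them inside a long noncoding RNA gene. Several of these hosts lie beside NF-kB linked genes: Gm12223 at Csf2, Gm36233 at Tnfrsf1b, Gm35476 at Traf2, Gm32650 at Ccl5 and 5330425B07Rik at Vcam1, named after their positions were seen. They were picked for these neighbours, and other hosts lie at genes such as Kcng4, Wdr86 and Tex44. Whether hosts lie beside NF-kB linked genes more often than other gene-flanking peaks do was not tested. RefSeq gave the strand of the nearest gene for 557 peaks (76.0%), with 297 on the start-site side and 260 on the other side, which is too few with a strand for a share over all members. The side is therefore given below for single genes only.

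Of 20558 protein-coding genes on chromosomes 1 to 19, 829 (4.03%) had a gene-flanking peak within 10 kb of an end. For 574 of these (69.2%) no other peak lay inside the gene or within 1 kb of an end, counting peak centres here and below. A peak within 1 kb of an end was present at 85 of the 829 (10.3%), against 6.58% of all genes, and a peak centre inside the gene at 222 (26.8%), against 15.1% of all genes. Genes with a gene-flanking peak were also longer, with a median of 23.7 kb against 17.6 kb for all genes, and the part of length in these shares was not tested.

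The response lists, 14 in number, held 241 genes. Of these, 47 (19.5%, Wilson 95% interval 15.0 to 24.97%) had a gene-flanking peak, against 4.03% of all genes. Besides NF-kB and TNF receptor genes, the response lists cover, among others, matrix remodelling genes, immediate early genes and feedback genes of other pathways. In 8 lists of fibroblast, actin, housekeeping and other cell type genes, 10 of 132 (7.58%, 4.17 to 13.4%) had one. These lists were written with results from the same peaks known, so the counts describe the lists and are no independent evidence. Of the 47 genes, 23 (48.9%) had no other peak inside or within 1 kb of an end, against 69.2% of all 829 genes with a gene-flanking peak. A peak within 1 kb of an end was present as well at 16 (34.0%), against 10.3% of the 829.

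**Figure D4:**
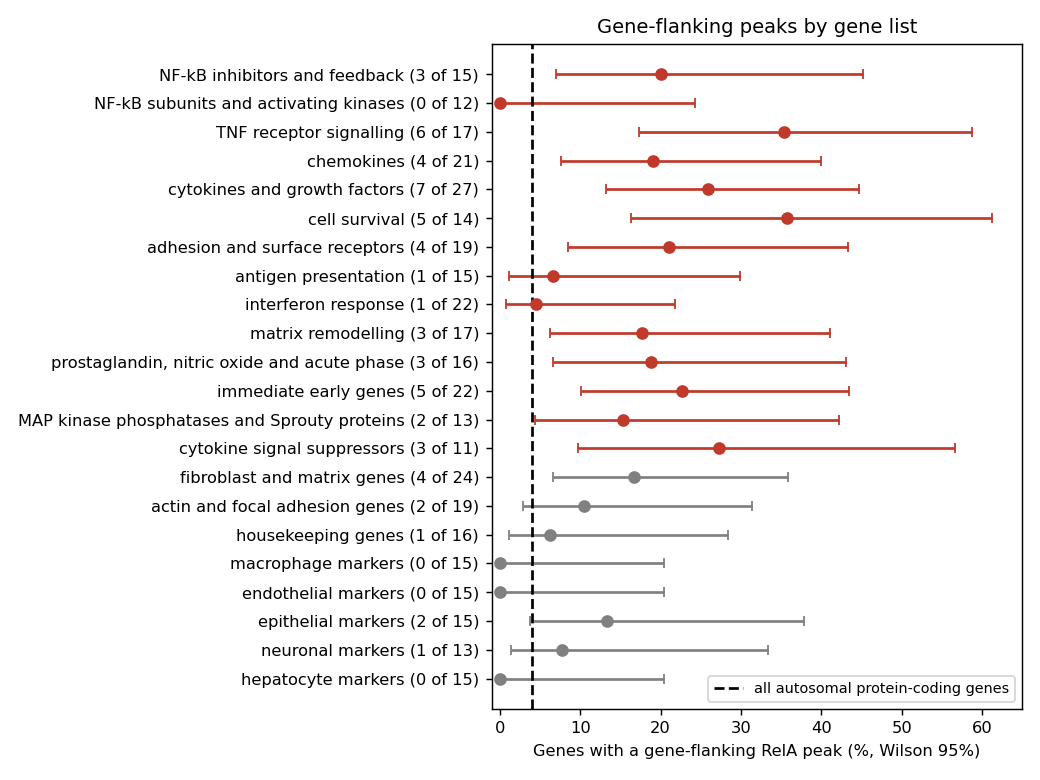
Percentage of genes with a gene-flanking RelA peak in 22 gene lists, with Wilson 95% intervals and the count of genes beside each name; response lists are red, other lists grey, and the dashed line is the share of all autosomal protein-coding genes, 4.03%. TNF receptor signalling (6 of 17) and cell survival (5 of 14) have the highest shares, and no gene of the NF-kB subunit and kinase list has such a peak.

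Genes of the TNF receptor signalling list, which also holds receptors and related kinases, had a gene-flanking peak in 6 of 17 cases. This was 35.3%, against 4.03% of all genes, and the 6 genes shared 5 peaks. At Birc2, the gene of a ubiquitin ligase that joins the TNF receptor complex, an 845 bp peak lay 1.08 kb on the start-site side, and the same peak was 9.26 kb from its neighbour Birc3. Traf2, the adaptor that recruits this ligase, had a 1222 bp peak 2.49 kb on the start-site side (chromosome 2, 25548818 to 25550039). A 1136 bp peak lay 5.15 kb from Ripk2, a kinase gene of bacterial sensing, and a 733 bp peak 7.79 kb on the start-site side of the TNF receptor gene Tnfrsf1b. Birc2, Traf2 and Tnfrsf1b had no peak within 1 kb of an end, though Birc2 and Traf2 each had 1 peak inside. Ripk2, Birc3 and Fadd, an adaptor gene of the list named after its values were seen, each had a peak within 1 kb of an end. Among all 829 genes with a gene-flanking peak, 10.3% had one.

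Among NF-kB subunit and activating kinase genes, none of 12 had a gene-flanking peak, which allows a share of up to 25%, although 9 of the 12 had a peak within 1 kb of an end, against 6.58% of all genes. Among NF-kB inhibitors and feedback genes, 3 of 15 had a gene-flanking peak (20%, against 4.03% of all genes) and 10 of 15 a peak within 1 kb of an end. Bcl3, which encodes a nuclear I-kappa-B protein (chromosome 7, 19808462 to 19822824), had 2, of 621 and 650 bp, at 1.45 and 4.21 kb on the start-site side, outside a 529 bp peak over its start. At Tnip1, the gene of an A20-binding protein, a 986 bp peak lay 9.29 kb on the start-site side and 6.71 kb from Anxa6, an annexin gene. Zfp36 differed from both, since its 1579 bp peak at 2.37 kb was the only peak inside the gene or within 10 kb of it, and it also lay within 10 kb of Plekhg2 and Med29.

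**Figure D5:**
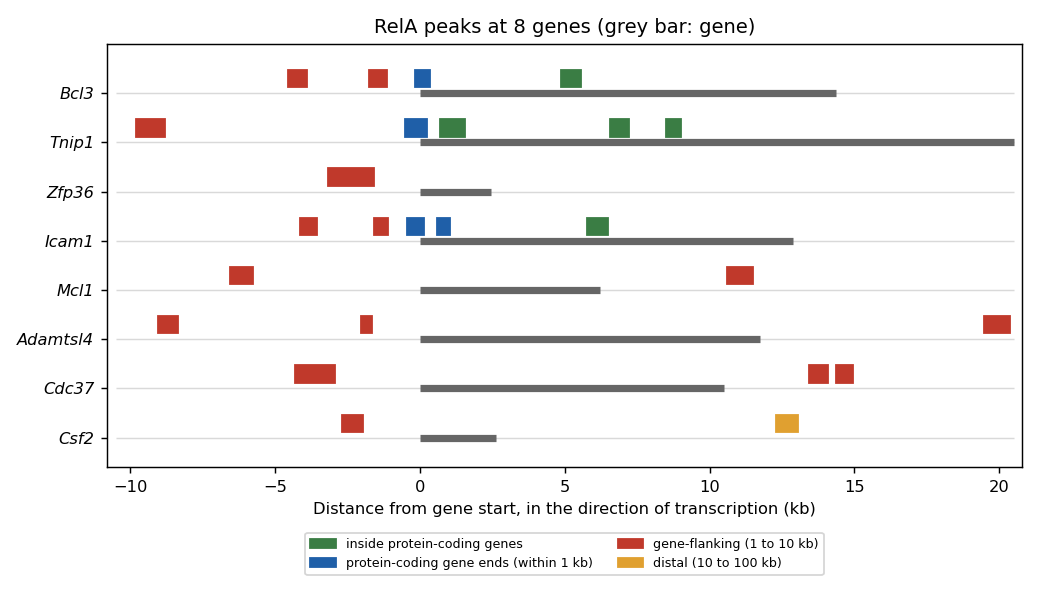
RelA peaks from 10 kb before the start of 8 genes to about 20 kb beyond it, drawn to scale along the direction of transcription, with each gene as a grey bar (Tnip1 runs past the right edge) and peaks coloured by location class. Bcl3 and Icam1 have gene-flanking peaks in a row with peaks at the start, whereas all peaks drawn at Zfp36, Mcl1, Adamtsl4 and Cdc37 are gene-flanking, and Csf2 has a distal peak 12.7 kb after its start besides its gene-flanking one.

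Secreted mediators had gene-flanking peaks in 4 of 21 chemokine genes (19.05%) and 7 of 27 cytokine and growth factor genes (25.9%), against 4.03% of all genes. Ccl2, which attracts monocytes, had a 941 bp peak at 2.43 kb and a 467 bp peak at 7.25 kb on the same side of the gene (chromosome 11, 82032678 to 82033618 and 82028092 to 82028558), and no peak inside or within 1 kb of an end. Ccl9 had a 588 bp peak 2.42 kb on the start-site side, and Ccl5 a 942 bp peak at 4.42 kb in addition to a peak within 1 kb of one of its ends. The peak 7.94 kb from Cxcl16 was nearer to Zmynd15. Thus 2 of the 4 chemokine genes had flanking peaks alone, against 69.2% of all 829 genes with a gene-flanking peak.

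Among cytokine genes, Csf2, which encodes a granulocyte and macrophage growth factor, had a 714 bp peak 2.32 kb on the start-site side (chromosome 11, 54251864 to 54252577). Il1a, an interleukin-1 gene, had a 531 bp peak 1.54 kb on the start-site side, and Pdgfb, a platelet-derived growth factor gene, a 537 bp peak at 1.28 kb. None of these 3 genes had a peak inside or within 1 kb of an end, as was so for 69.2% of all 829 genes with a gene-flanking peak. At Il34 a 913 bp peak lay 2.77 kb from the gene but 1.78 kb from its neighbour Sf3b3, and 5 more peaks were inside Il34. The Lta peak, named after its values were seen, lay 4.90 kb on the start-site side of Lta and 8.47 kb from Tnf, so a single peak counts for both.

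Cell survival genes had a gene-flanking peak in 5 of 14 cases (35.7%, against 4.03% of all genes). Mcl1, which encodes an anti-apoptotic protein of the BCL family (chromosome 3, 95656944 to 95663179), had a 798 bp peak 6.14 kb on the start-site side and a 908 bp peak 4.82 kb beyond its end, and no other within 10 kb. The p53 target genes Gadd45a and Cdkn1a, which encode a DNA damage response protein and a cell cycle inhibitor, had peaks of 672 and 751 bp at 3.75 and 8.91 kb on the start-site side. Ier3, an early response gene, had an 1178 bp peak 8.45 kb on the start-site side, beside the peak over its start window shown above. Ier3 was thus the only one of these 4 with a peak at an end. Fas, which also had a gene-flanking peak and was named after its values were seen, had a peak at an end too. Among all 829 genes with a gene-flanking peak, 10.3% had one.

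Adhesion and surface receptor genes were near gene-flanking peaks in 4 of 19 cases (21.1%, against 4.03% of all genes). Of the 4, 3 also had a peak at an end, against 10.3% of all 829 genes with a gene-flanking peak. Icam1, the leukocyte adhesion molecule gene (chromosome 9), had peaks of 486 and 595 bp at 1.33 and 3.85 kb on the start-site side, the second of which was nearer to Mrpl4. They stood in a row with peaks 0.150 kb before and 0.818 kb after the start. Il4ra had an 1137 bp peak 1.77 kb beyond its end, and Vcam1, another adhesion molecule gene, an 820 bp peak at 8.66 kb. Itgav, an integrin gene, had an 1188 bp peak 7.68 kb on the start-site side and none at its ends.

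Antigen presentation and interferon response genes had a share near the background. The counts were 1 of 15 (6.67%) and 1 of 22 (4.55%), against 4.03% of all genes, and 10 and 7 of these genes had a peak within 1 kb of an end, against 6.58% of all genes. The genes with a gene-flanking peak were Tap2, a peptide transporter gene (622 bp, 2.60 kb), and Stat3, the gene of a cytokine-activated transcription factor (592 bp, 7.39 kb on the start-site side).

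Immediate early genes had a gene-flanking peak in 5 of 22 cases (22.7%, against 4.03% of all genes). The peak nearest to Myc, a growth regulator gene, was 489 bp wide at 1.05 kb. Ier2 had peaks of 565 and 746 bp at 1.10 and 4.604 kb on the same side, with a further peak within 1 kb of one of its ends. Ier5 had a 634 bp peak 4.28 kb beyond its end, and the 1105 bp peak 7.02 kb on the start-site side of Junb, an AP-1 subunit gene, was nearer to Hook2. Feedback genes of other pathways also had such peaks. Peaks lay beyond the ends of the phosphatase gene Dusp1 (447 bp, 2.55 kb) and of Spry1 (1057 bp, 9.50 kb), which made 2 of 13 in that list (15.4%). The suppressor genes Socs7, Cish and Socs5 made 3 of 11 (27.3%), with peaks of 624, 544 and 681 bp at 3.24, 3.52 and 4.51 kb, the first of them nearer to Arhgap23.

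Matrix remodelling genes were near a gene-flanking peak in 3 of 17 cases (17.6%, against 4.03% of all genes). Mmp14, which encodes a membrane-bound metalloproteinase, had a 980 bp peak 1.21 kb beyond its end, the hyaluronan synthase gene Has2 an 809 bp peak at 6.31 kb, and Timp2, a metalloproteinase inhibitor gene, a 609 bp peak 7.89 kb on the start-site side. Prostaglandin, nitric oxide and acute-phase genes made 3 of 16 (18.8%). These were the cyclooxygenase gene Ptgs1 (630 bp, 2.46 kb), the complement gene C3 (816 bp, 3.63 kb, nearer to Trip10) and Saa3 (519 bp, 4.53 kb, nearer to Saa4), all on the start-site side. The Saa genes are close copies of each other, and reads may have been placed on the wrong copy.

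Fibroblast and matrix genes had a gene-flanking peak in 4 of 24 cases (16.7%, against 4.03% of all genes). The peaks were 614 bp wide at Col1a2, a type I collagen gene (2.34 kb on the start-site side), 757 bp at Col6a1 (7.11 kb), 780 bp at Sparc (8.42 kb) and 925 bp at the proteoglycan gene Lum (9.52 kb). None of these 4 genes had another peak inside or within 1 kb of an end, as was so for 69.2% of all 829 genes with a gene-flanking peak. Actin and focal adhesion genes made 2 of 19 (10.53%), Actb and Ccn2, with peaks of 538 and 848 bp at 3.68 and 6.14 kb. Of 16 housekeeping genes, Tfrc had a 512 bp peak at 7.50 kb that was nearer to Tnk2 (6.25%).

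Lists of markers of other cell types can be set beside the 4.03% of all genes with such a peak. The macrophage, endothelial and hepatocyte lists had none in 15 genes each. This allows a share of up to 20%, so these lists cannot show a share below that of all genes. The epithelial list had 2 of 15 (13.3%), Cldn4 (580 bp, 4.36 kb) and Esrp2 (995 bp, 8.51 kb, nearer to Pla2g15), and the neuronal list 1 of 13 (7.69%), Gad1 (680 bp, 1.75 kb).

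Genes with several gene-flanking peaks were uncommon. Of the 829 genes, 51 had 2 and 3 had 3. At Cdc37, a chaperone gene for protein kinases (chromosome 9, 21139431 to 21149934), a 1375 bp peak lay 3.62 kb on the start-site side and peaks of 685 and 564 bp lay 3.26 and 4.16 kb beyond the end, the last nearer to the Janus kinase gene Tyk2. Adamtsl4 on chromosome 3, next to Mcl1, shared with it the 908 bp peak and had 2 more, at 1.83 and 8.69 kb on the start-site side. Synpo2, an actin-binding protein gene of 159.7 kb, had 3 at 8.43 to 9.81 kb from its ends and 5 peaks inside. The other genes in the first 10 by number and summed width were Plekhg2 (summed width 2192 bp, which includes the Zfp36 peak), Cd276 (2020 bp), Mylk2 (1709 bp), Mcl1 (1706 bp), Nfib (1678 bp), Cbx8 (1674 bp) and D7Ertd443e (1616 bp). Of these 10 genes, none had a peak centre within 1 kb of an end, and among all 829 genes 85 (10.3%) had one.

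By chromosome, the number of gene-flanking peaks ran from 20 on chromosome 18 to 65 on chromosome 11. As a share of a chromosome's own peaks they ran from 5.06% on chromosome 13 (26 of 514, Wilson 95% interval 3.48 to 7.31%) to 10.8% on chromosome 17 (40 of 372, 8.00 to 14.3%). These 2 were picked as the lowest and highest of the chromosomes. Their intervals therefore do not measure a difference between chromosomes, which was not tested. Per Mb of sequence that meets the rule, the lowest density was 2.76 on chromosome 14 and the highest 5.44 on chromosome 11.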

How the data were processed

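Positions of RelA ChIP-seq peaks from 8 libraries were deposited by the authors as 1 list with chromosome, start and end in base pairs. The build was mm10 and the tools were MACS2, deepTools, Picard 1.13, SAMtools, Bowtie2 2.3 and cutadapt 1.9.1, per the submitters' processing notes; for the peak threshold, the use of input and any pooling of libraries, the answer is not given in the sources used here. Starts were converted to positions counted from 1. Genes came from the RefSeq table of GRCm38.p6 (49209 genes on chromosomes 1 to 19 and X, 21521 protein-coding; 345 on scaffolds were left out). Strand came from the RefSeq start windows. No test was run, since no value per library was used here. The scripts (Python 3.11.15, pandas 2.3.3, scipy 1.17.1) were checked on simulated positions.

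The members and the 22 gene lists were chosen with earlier results of these data known. Of 383 list genes, 373 were autosomal and protein-coding. Named genes were the 4 closest to a member in each list, those nearest to the 10 widest members, the 10 with the most members, and 5 peaks on each side of each limit. Any other gene, including noncoding hosts and neighbours that share a peak, was named once its values were known. The printed windows were those under a member, or those of named genes under a peak and with a kappaB match. The planned motif search under peaks and the share of peaks on the start-site side were not run. Wilson and Poisson 95% intervals cover counting error only.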

Additional observations from a re-analysis of the deposited data

Results flagged for a closer look

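Chromosome X lies outside the rule. It held 135 peaks of any class, fewer than chromosome 19, which had the fewest of chromosomes 1 to 19 (244). Of the 135, 9 (6.67%) met the same distance limits, against 7.57% of the peaks on chromosomes 1 to 19. Their density was 0.750 per Mb of sequence that meets the limits (95% Poisson interval 0.343 to 1.42), against 3.86 per Mb on chromosomes 1 to 19. They had a median width of 625 bp and were nearest to Il13ra1, an interleukin receptor gene (588 bp, 4.41 kb), Slc25a5, Haus7, the proteoglycan gene Bgn (762 bp, 6.65 kb), Naa10, Fthl17a, Rlim, Zdhhc15 and Gpm6b.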

How the results depend on the processing

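Over 26 results under alternatives, 16 stayed within 1.5 times the count of 733 or within the 95% interval of the reported value, and 10 did not. Peaks at least as wide as the median of the whole list numbered 329 in the class, 1.73 per Mb, with a median width of 803 bp, 10.9% with a neighbour within 10 kb and 1.87% of genes; this alternative leaves fewer peaks by construction. With an upper limit of 5 kb, 376 peaks and 1.97% of genes remained in the class. The share of genes was also 3.16% with a lower limit of 2 kb, 4.48% when ends of protein-coding genes alone were kept 1 kb away, and 3.36% when each peak went to the gene with the nearest end. With peaks less than 1 kb apart merged, all 5 values stayed within these bounds, and the share with a neighbour was 20.7%. The side and motif alternatives were not run, for lack of strands and of a genome sequence. No paired analysis was possible because the deposited list carries no value per library. Without peak heights or depth, weak and strong peaks count alike.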

Other observations

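Of all 829 genes with a gene-flanking peak, 69.2% had no other peak inside or within 1 kb of an end, and 51 had 2 gene-flanking peaks. Several further genes of these 51, picked by name after their values were seen, had no other peak inside or within 1 kb of an end. They included the morphogen gene Wnt3a (summed width 1071 bp), the acute-phase serine protease inhibitor gene Serpina3n (1414 bp), the interferon-induced membrane protein gene Ifitm1 (1296 bp), the cytokine receptor gene Il20rb (1562 bp), the p53 target gene Phlda3 (1520 bp), the signalling regulator gene Rgs16 (1320 bp), the caveolar coat gene Cavin1 (1210 bp) and the receptor gene Acvrl1 (1059 bp). Has1, a hyaluronan synthase gene like Has2, had 2 gene-flanking peaks at 1.20 and 6.995 kb, both inside the long noncoding gene Gm36907, and a further peak inside Has1 itself. At Rgs16 the 2 peaks, at 4.16 and 9.37 kb, likewise stood inside 1 noncoding gene, C230024C17Rik.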
